A study of Bos taurus with 16 samples.

Results

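The report concerns 10 genes of glycogen synthesis and breakdown in the liver of beef steers, out of 18010 genes that carried a single symbol in the annotation of the array. They are the glycogenin GYG1, the liver glycogen synthase GYS2, the branching enzyme GBE1, the sugar-nucleotide and phosphosugar enzymes UGP2 and PGM1, the liver glycogen phosphorylase PYGL, the phosphorylase kinase subunit PHKA2, the glycogen-targeting subunits of protein phosphatase 1 PPP1R3B and PPP1R3C, and the kinase GSK3B. The genes were taken from a list by symbol, and each was read from its probe set with the highest mean over all arrays. All 10 were measured, and each had a mean above the median probe set mean of 5.60 in at least 1 phase.

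Weaned Angus steers, castrated males with a body weight of 209 ± 29.4 kg at the start, were randomly allotted to a growing phase that ended at 301 kg (8 steers) or to a finishing phase that ended at 576 kg (8 steers), when liver was taken. Every steer was fed individually on a diet based on cotton seed hulls, in amounts set for a gain of 1.5 kg per day. Liver RNA of each animal was hybridised to 1 array, and the values are log2 signals, so that a difference of 1 is a 2-fold change. Between the phases body weight, the time spent on the diet and the age at sampling that goes with it cannot be told apart, and the labels give no ages.

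The liver stores glucose as glycogen after feeding and releases it between meals. Glucose 6-phosphate is turned into glucose 1-phosphate and then UDP-glucose, which glycogen synthase adds to chains started on a glycogenin primer and forked by the branching enzyme. Phosphorylase, switched on by phosphorylase kinase, removes the residues again, and protein phosphatase 1 held on the glycogen particle reverses the phosphorylations that silence the synthase and activate phosphorylase. In ruminants little dietary glucose reaches the liver, and hepatic glucose comes mostly from gluconeogenesis, in large part from rumen propionate.

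Hepatocyte transcripts were abundant on every array. Mean log2 signals of 10 hepatocyte markers ran from 12.8 to 12.9 in growing and from 12.7 to 12.9 in finishing steers, with ALB at 13.7 in both phases. Skeletal muscle markers averaged 4.03 to 4.39 and 4.05 to 4.603. Finishing replicates 5 and 6 stood apart from the other arrays, with the lowest median correlations to their own group (0.978 and 0.982), and the GYS2, PHKA2, PPP1R3B, PPP1R3C and G6PC1 results are given with and without them. Of 18010 genes, 8.36% differed between the phases at an adjusted p under 0.05 (2.70% higher and 5.66% lower in finishing steers) by limma, a linear model fitted to all 26773 probe sets with Benjamini-Hochberg adjustment over all of them. A rank-sum test with the same adjustment called 1239 of the 26773 probe sets, 390 higher and 849 lower. Counts at an unadjusted p under 0.05 by limma are given below without the share of all genes, so they are not evidence of an excess.

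Of the 10 glycogen genes, GYS2 passed this test and was higher in finishing steers, and 0 were lower by limma or by a rank-sum test (0 of the other 9 had an unadjusted p under 0.05). This count of 1 in 10 is near the share of all genes called. The median difference of the 10 genes was -0.07, beside 0.01 for all named genes. The differences of the other 9 genes lay between -0.21 and 0.08, 8 of them below 0. None of the 10 had phases that did not overlap, against 1.21% of all named genes.

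**Figure D1:**
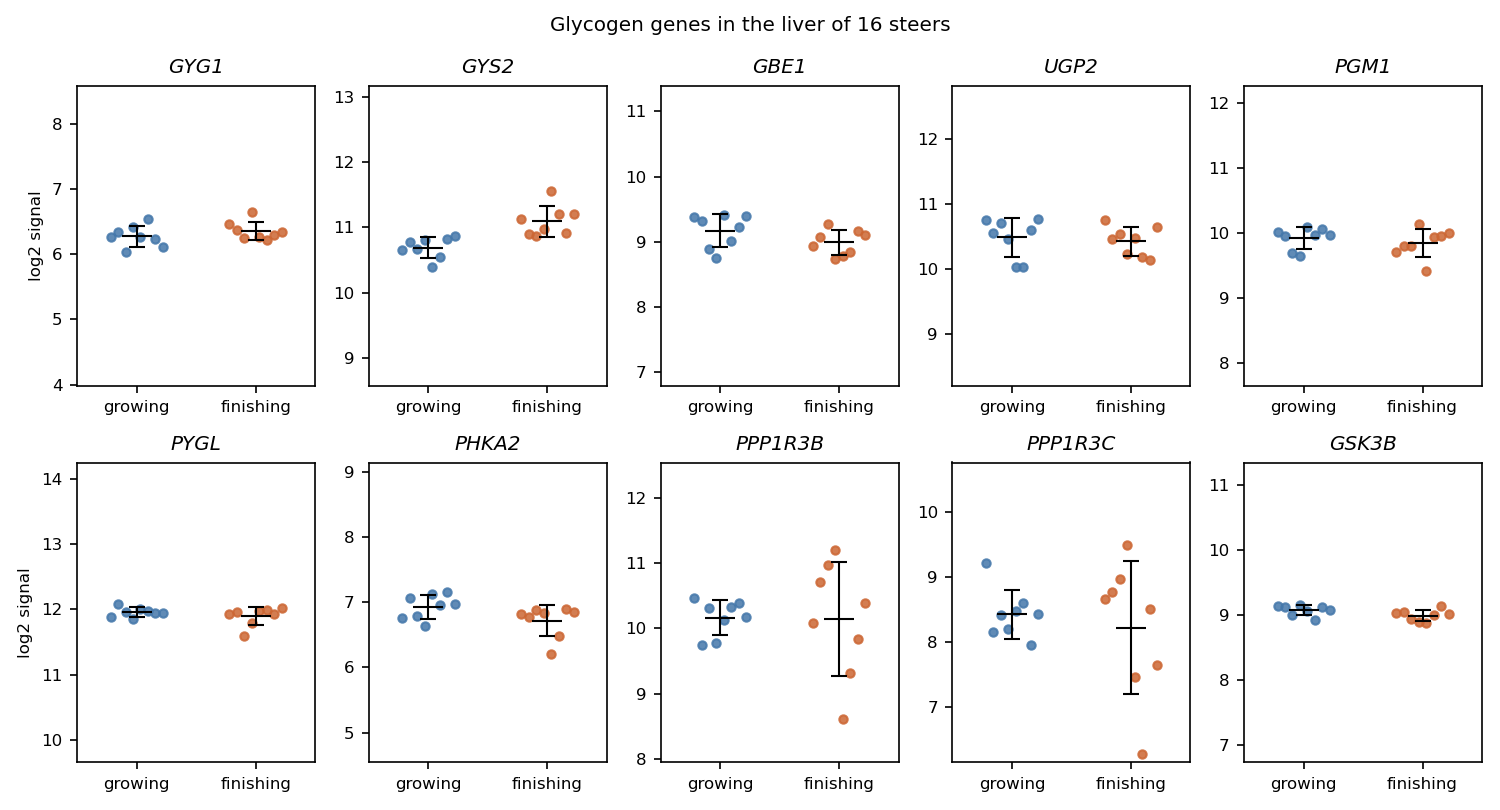
Log2 signal (vertical axis, the same span in every panel) of the 10 glycogen genes in 8 growing (blue) and 8 finishing (orange) steers. Points are steers in order of replicate number and bars are the mean ± SD; GYS2 is shifted upward in finishing steers, and PPP1R3B and PPP1R3C have the widest scatter among finishing steers.

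GYS2, the enzyme that lengthens glycogen chains in liver, had log2 signals of 10.65, 10.77, 10.67, 10.80, 10.39, 10.54, 10.82 and 10.87 in growing replicates 1 to 8. In finishing replicates 1 to 8 the GYS2 signals were 11.13, 10.89, 10.87, 10.98, 11.55, 11.20, 10.91 and 11.20. Of the finishing values 7 lay above every growing value, finishing replicate 3 met the highest growing steer at 10.87, and finishing replicate 5 was the highest of all. The mean rose from 10.7 ± 0.16 to 11.1 ± 0.23 (SD, n = 8 per phase), a log2 difference of 0.40 ± 0.10 (SE) or 1.32-fold (limma adjusted p = 0.0208). Leaving out each of the 16 arrays in turn kept GYS2 past the threshold, with adjusted p from 0.0144 to 0.0422. Without finishing replicates 5 and 6 together the difference was 0.31 and missed the threshold (adjusted p = 0.0592 by limma).

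Markers of other liver cells differed between the same steers. In finishing steers 7 of 9 stellate cell and fibroblast markers fell by limma, where 5.66% of all named genes were lower. The mean log2 signals of the 9 were 7.97 to 8.21 in growing and 7.26 to 7.61 in finishing steers. One of the 7, PDGFRB, missed the threshold in 9 of the 16 fits without 1 array (adjusted p up to 0.0667). Without finishing replicates 5 and 6 PDGFRB had an adjusted p of 0.117 by limma. Of the lymphocyte markers 5 of 10 fell (5.74 to 6.35 against 5.27 to 5.83), of the macrophage markers 4 of 9 (9.55 to 10.1 against 8.73 to 10.04), of the endothelial markers 2 of 7 (8.83 to 8.98 against 8.62 to 8.94) and of the hepatocyte markers 1 of 10, AHSG. A rank-sum test called 6 stellate and fibroblast, 4 lymphocyte, 1 macrophage, 0 endothelial and 2 hepatocyte markers, and limma put 3 endothelial markers at an unadjusted p under 0.05. Of the macrophage markers CD68 and C1QA missed the threshold in 13 and 14 of the 16 fits without 1 array (adjusted p up to 0.0891 and 0.0858), and CD163 and MARCO had differences of 0.48 and 0.10 (adjusted p = 0.244 and 0.90). Of 7 skeletal muscle, 5 erythroid (4.97 to 6.07 against 4.74 to 7.21) and 7 neutrophil markers (4.85 to 5.18 against 4.89 to 5.24) 0 passed by limma or by a rank-sum test, and at an unadjusted p under 0.05 the counts by limma were 2, 0 and 2. No detection calls were used, so no marker can be said to be at 0. In whole liver, fewer cells of a type and less RNA per cell cannot be told apart, and the part of these cells in the GYS2 difference was not tested.

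The other synthesis enzymes among the 10 genes did not pass the test. GYG2 and PGM2, from outside the 10, rose and are given below. GBE1, which forks the growing chains, had growing signals of 9.38, 9.32, 8.88, 8.75, 9.41, 9.01, 9.23 and 9.39 and finishing signals of 8.93, 9.07, 9.28, 8.73, 8.79, 8.85, 9.16 and 9.10. The phases overlapped, with 7 of 8 finishing steers below the growing mean, and the GBE1 difference was -0.18 ± 0.11 (limma adjusted p = 0.357; 95% interval -0.41 to 0.05). UGP2, which makes UDP-glucose, spanned 10.03 to 10.77 in growing and 10.14 to 10.75 in finishing steers, all 8 finishing values within the growing range (difference -0.06, interval -0.32 to 0.20, adjusted p = 0.835). PGM1, which interconverts glucose 1-phosphate and glucose 6-phosphate and so serves both directions, had a difference of -0.08 (interval -0.28 to 0.12, adjusted p = 0.696), and of -0.02 without finishing replicates 5 and 6. Its lowest signal of the 16 was 9.42 in finishing replicate 5. GYG1, a glycogenin that primes new particles, had a difference of 0.08 (interval -0.08 to 0.25, adjusted p = 0.596), with signals of 6.03 to 6.54 in growing and 6.22 to 6.65 in finishing steers. None of these 4 intervals held a rise as large as the 0.40 of GYS2.

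On the breakdown side, PYGL, which releases glucose 1-phosphate from glycogen, varied little. Its signals were 11.88, 12.09, 11.96, 11.86, 12.01, 11.98, 11.94 and 11.95 in growing steers and 11.93, 11.96, 11.60, 11.79, 11.97, 11.998, 11.93 and 12.02 in finishing steers. Finishing replicates 3 and 4 lay below all growing steers and the other 6 lay among them. The PYGL difference was -0.06 ± 0.06 (SE), with a 95% interval of -0.19 to 0.08 (limma adjusted p = 0.652), so a change of the size seen in GYS2 lies outside the interval. PHKA2, the liver form of the regulatory alpha subunit of phosphorylase kinase, had growing signals of 6.76, 7.06, 6.78, 6.64, 7.13, 6.96, 7.15 and 6.97 and finishing signals of 6.81, 6.77, 6.88, 6.84, 6.21, 6.49, 6.90 and 6.85. All 8 finishing steers lay below the growing mean, and finishing replicates 5 and 6 lay below every other animal. The difference of PHKA2 was -0.21 ± 0.10 and missed the threshold (adjusted p = 0.25, interval -0.43 to 0.01), and without finishing replicates 5 and 6 it was -0.09 (adjusted p = 0.617).

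Whether GYS2 changed by a different amount from its partners was asked within each array. The log2 signal of GYS2 minus that of PYGL averaged -1.27 ± 0.19 (SD, n = 8) at the end of growing and -0.81 ± 0.20 (n = 8) at the end of finishing. This shift of 0.46 had a 2-sided exact permutation p of 0.000311 (0.000932 adjusted over the 3 pairs compared), and all 8 finishing steers lay above the growing mean. GYS2 minus GBE1 moved from 1.52 ± 0.32 to 2.10 ± 0.38, a shift of 0.58 (exact permutation p = 0.00466, adjusted 0.00699), again with 8 of 8 finishing steers above the growing mean. Without finishing replicates 5 and 6 these shifts were 0.39 and 0.43 (adjusted exact p = 0.005 and 0.0325). Probe sets differ in their response to RNA, so these within-array differences show an unequal change and give no ratio of transcript amounts. Both shifts contain the GYS2 difference of 0.40 itself, beside -0.06 for PYGL and -0.18 for GBE1. GYS2 had already passed the test between phases, so the shifts are no separate support for its rise.

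**Figure D2:**
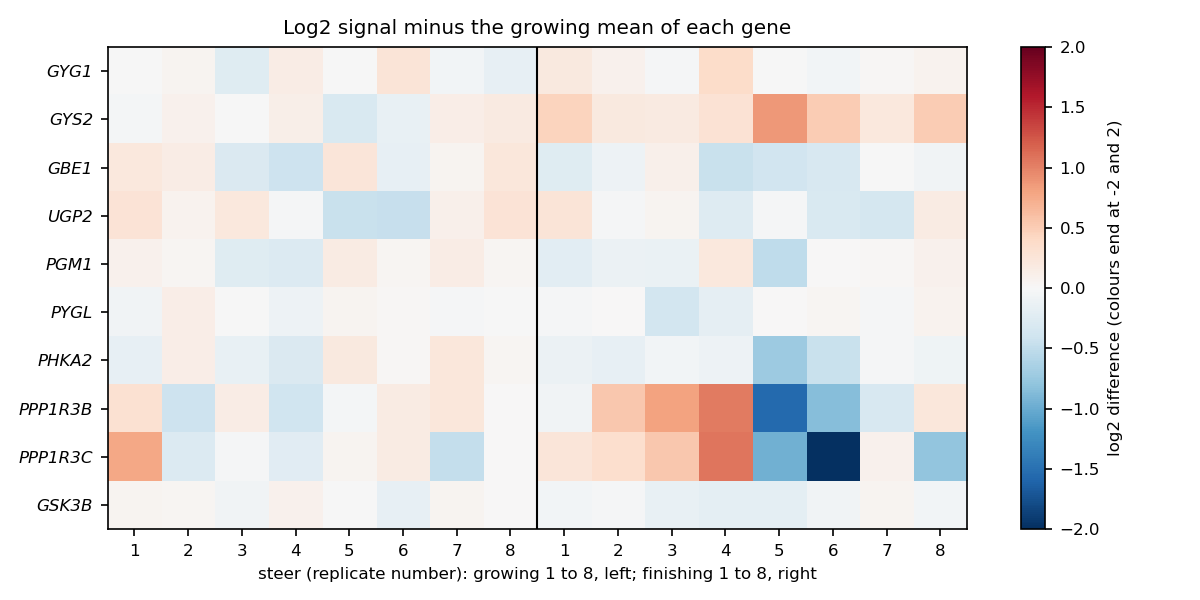
Log2 signal of each glycogen gene (rows) in each steer (columns) minus the gene's mean over the 8 growing steers; red is higher and blue lower, and colours end at -2 and 2. The GYS2 row is red across the finishing steers, and the PPP1R3B and PPP1R3C rows run from red in finishing replicates 2, 3 and 4 to blue in replicates 5 and 6.

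The regulators that aim protein phosphatase 1 at glycogen had wide ranges among finishing steers and did not pass the test between phases. PPP1R3B, the targeting subunit abundant in liver, had signals of 10.46, 9.75, 10.32, 9.77, 10.12, 10.33, 10.40 and 10.18 in growing steers. In finishing steers PPP1R3B had signals of 10.09, 10.71, 10.98, 11.21, 8.62, 9.31, 9.84 and 10.39. Finishing replicates 2, 3 and 4 lay above every growing steer and replicates 5 and 6 below every one, a 6.02-fold range (2.57-fold without replicates 5 and 6) against 1.64-fold among growing steers. The phase means were 10.2 ± 0.27 and 10.1 ± 0.87 (SD, n = 8 per phase), and the PPP1R3B difference of -0.02 ± 0.29 (SE) had an interval of -0.64 to 0.59 (limma adjusted p = 0.975).

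PPP1R3C, a related targeting subunit also called PTG, had signals of 9.20, 8.16, 8.41, 8.19, 8.48, 8.59, 7.95 and 8.43 in growing steers. Its finishing signals were 8.66, 8.76, 8.96, 9.49, 7.46, 6.29, 8.51 and 7.64. Finishing replicate 4 lay above every growing steer and replicates 5, 6 and 8 below every one, a 9.22-fold range (3.61-fold without replicates 5 and 6) against 2.39-fold. The PPP1R3C means were 8.43 ± 0.38 and 8.22 ± 1.03, with a difference of -0.20 ± 0.35 (SE, limma adjusted p = 0.789, interval -0.94 to 0.53). The sign of both differences depended on which replicates were kept. Without finishing replicates 5 and 6 they were 0.37 for PPP1R3B and 0.24 for PPP1R3C, with adjusted p = 0.336 and 0.645 by limma. The PPP1R3B difference was also above 0 without growing replicate 1 (0.018), growing replicate 7 (0.0088) or finishing replicate 7 (0.019), which had not stood apart.

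The SD over finishing steers exceeded that of 99.6% of named genes for PPP1R3B and of 99.8% for PPP1R3C. Relative to growing steers the SD was 3.21 and 2.73 times as large, beside a median of 1.14 times over all named genes, and without finishing replicates 5 and 6 it was 1.93 and 1.62 times as large. A 2-sided permutation test of absolute deviations from the phase median, added after these values had been seen, gave p = 0.0205 for PPP1R3B and p = 0.0811 for PPP1R3C. Neither passed adjustment over all 26773 probe sets (adjusted p = 0.90 and 0.991), and this permutation test called 0 probe sets (0%), with 1361 (5.08%) at an unadjusted p under 0.05. Without finishing replicates 5 and 6 the permutation p values were 0.0683 and 0.418. All arrangements were counted, but the phase medians came from the same values, so the p values of this test are approximate.

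**Figure D3:**
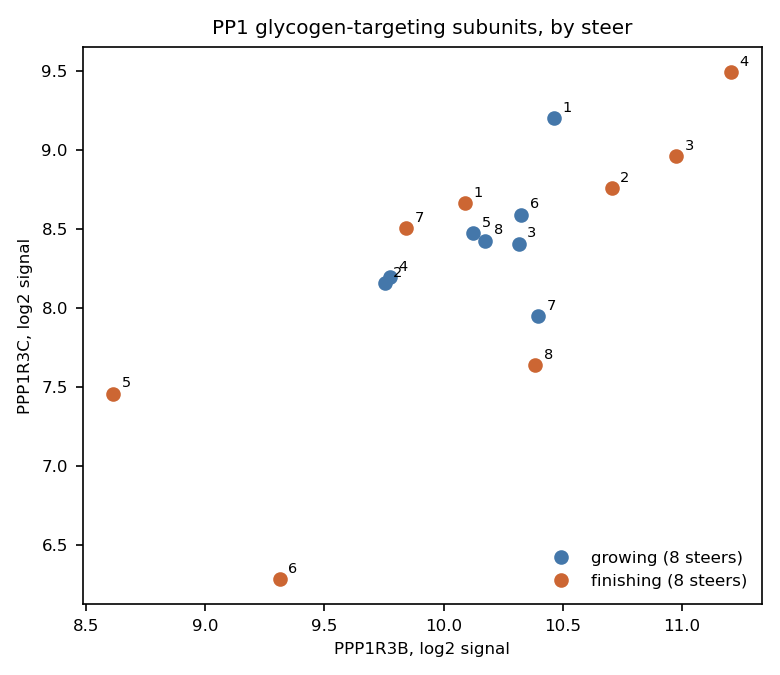
Log2 signal of PPP1R3B (horizontal) against PPP1R3C (vertical) in 8 growing (blue) and 8 finishing (orange) steers, labelled by replicate number. Finishing replicate 4 is highest for both genes, and replicates 5 and 6 lie at the lower left, apart from the growing steers.

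Among finishing steers the signals of these subunits ran in nearly the same order (Pearson r = 0.765, exact permutation p = 0.0258; Spearman rho = 0.905, exact permutation p = 0.00456; n = 8). Adjusted over the 6 relations tested, the p was 0.155 for r and 0.0274 for rho, and without the 2 arrays farthest from the PPP1R3B median (finishing replicates 4 and 5) r was 0.757 (n = 6). With finishing replicates 5 and 6 left out instead, a choice made after seeing the data, r was 0.606 (exact permutation p = 0.19) and rho 0.829 (exact permutation p = 0.0583, n = 6). Among growing steers r was 0.481 (exact p = 0.235, adjusted 0.352; rho = 0.405, exact p = 0.327, adjusted 0.392), and 0.288 without the 2 farthest arrays. The within-array difference PPP1R3B minus PPP1R3C moved by 0.18 between phases (exact permutation p = 0.508, also after adjustment). GYS2 with PYGL and GYS2 with GBE1 gave r of -0.263 and -0.142 in growing and 0.521 and -0.576 in finishing steers, with exact p from 0.132 to 0.745 and adjusted p from 0.352 to 0.745. Their rho values were -0.429, -0.167, 0.762 and -0.548 in the same order (exact p = 0.299, 0.703, 0.0368 and 0.171, adjusted 0.392, 0.703, 0.11 and 0.342), and r without the 2 farthest arrays was 0.101, 0.12, 0.495 and -0.225.

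GSK3B, a kinase that phosphorylates and inactivates glycogen synthase, was among the least variable genes, with a within-phase SD of 0.08 that exceeded that of 1.90% of named genes. Its signals ran from 8.92 to 9.15 in growing and from 8.88 to 9.13 in finishing steers, 7 of 8 finishing steers below the growing mean. The GSK3B difference was -0.08 ± 0.05 (SE, limma adjusted p = 0.394, interval -0.20 to 0.03). The other 2 GSK3B probe sets gave differences of 0.00060 and -0.01, with adjusted p = 0.997 and 0.935 by limma.

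Of 20 other glycogen enzymes and regulators measured, 3 rose and 0 fell by limma, where 2.70% of all named genes were higher and 5.66% lower, and the median difference was 0.02. A rank-sum test called 2 of the 20, and 5 had an unadjusted p under 0.05 by limma, again without the share of all genes. GYG2, the glycogenin found mainly in liver in humans, rose by 0.40 ± 0.09 (SE, limma adjusted p = 0.017), from signals of 5.85 to 6.54 in growing to 6.33 to 6.85 in finishing steers, 6 of 8 above every growing steer. PGM2, a phosphopentomutase with some phosphoglucomutase activity, rose by 0.29 ± 0.08 (adjusted p = 0.0353), with 7 of 8 finishing steers above the growing mean and finishing replicate 3 the exception at 10.36. PHKG1, in mammals the catalytic subunit of muscle phosphorylase kinase, rose by 0.36 ± 0.10 (adjusted p = 0.0357), at a level of 4.19 and 4.55 that is below the median probe set mean. PGM2 stayed past the threshold in 5 of the 16 fits without 1 array, and failed when the array left out was growing replicate 1, 2, 3, 6, 7 or 8 or finishing replicate 2, 5, 6, 7 or 8 (adjusted p up to 0.0694). PHKG1 failed in 7 such fits, those without growing replicate 2, 6 or 7 or finishing replicate 1, 5, 6 or 8 (adjusted p up to 0.0698).

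The brain and muscle phosphorylases PYGB and PYGM had differences of -0.05 and -0.02 (limma adjusted p = 0.905 and 0.92), both at mean signals below the median probe set mean. The phosphorylase kinase subunits PHKB and PHKG2, the latter the catalytic subunit of liver, differed by -0.02 (adjusted p = 0.883) and by -0.15 (adjusted p = 0.178).

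**Figure D4:**
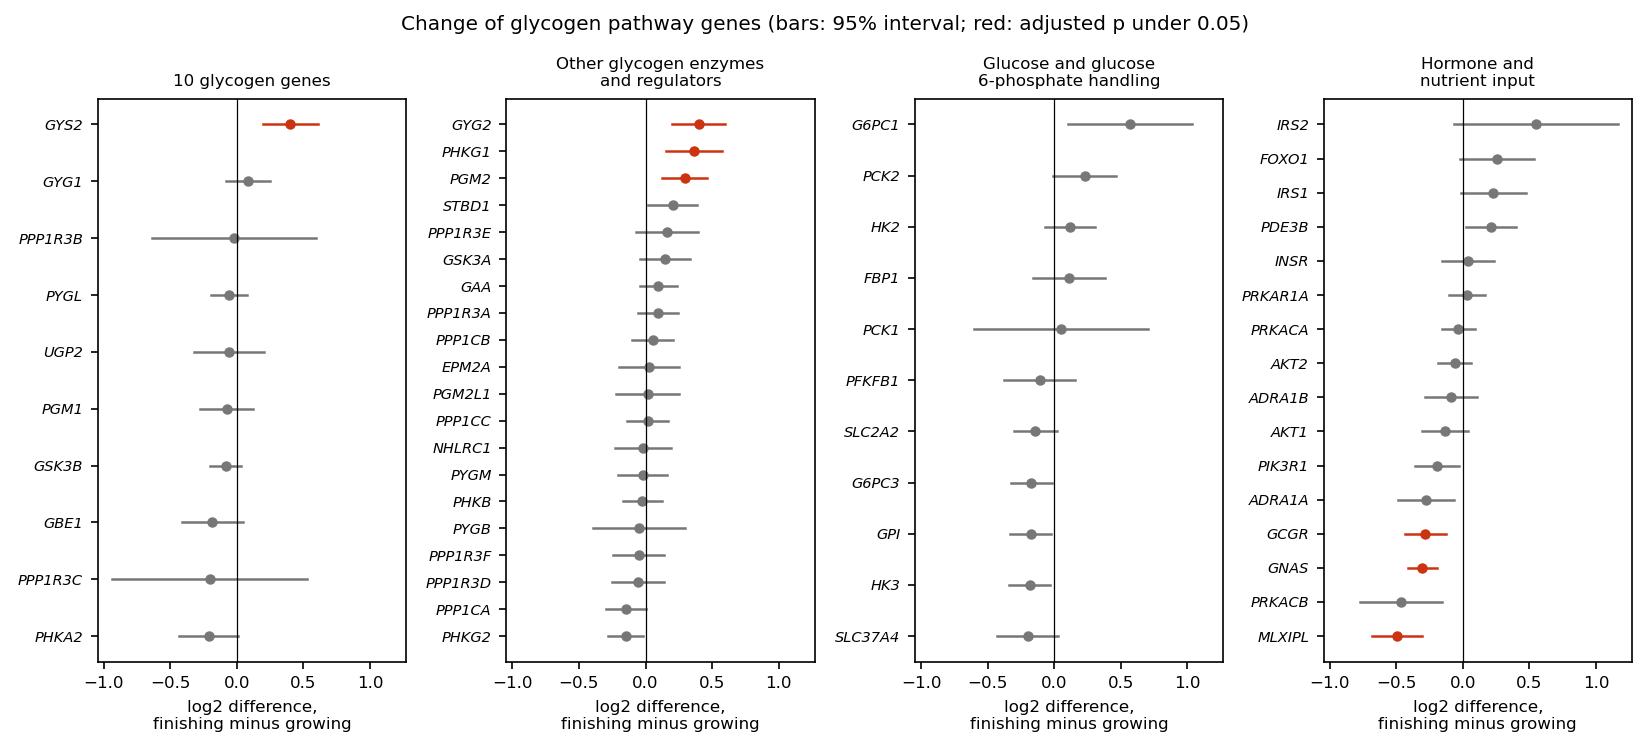
Log2 difference between phases, finishing minus growing (horizontal axis), for the glycogen genes and the genes of 3 related lists. Points are estimates from 8 steers per phase, bars are 95% intervals and red marks an adjusted p under 0.05; GYS2, GYG2, PHKG1 and PGM2 lie to the right of 0 and GCGR, GNAS and MLXIPL to the left.

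Of 11 genes of glucose and glucose 6-phosphate handling 0 passed by limma or by a rank-sum test, with a median difference of -0.11. At an unadjusted p under 0.05 by limma there were 4, a count without the share of all genes. G6PC1, the glucose 6-phosphatase that frees glucose for export, had signals of 11.39 to 12.06 in growing steers. Its finishing signals were 11.44, 11.67, 11.36, 12.35, 13.19, 12.64, 12.23 and 12.62. Finishing replicates 4 to 8 lay above every growing steer and replicate 3 below every one, and the highest G6PC1 signal came from replicate 5, the animal with the highest GYS2 and the lowest PPP1R3B signal. Replicate 5 also stood apart over the whole array, and a link between these genes was not tested. The G6PC1 difference was 0.57 ± 0.22 (SE, limma adjusted p = 0.136). Leaving out 1 array at a time gave 0.43 to 0.69, with adjusted p from 0.0494 (without finishing replicate 3) to 0.222. The G6PC1 difference without finishing replicates 5 and 6 was 0.33 (adjusted p = 0.375). SLC2A2, the hepatocyte glucose transporter, and SLC37A4, the glucose 6-phosphate translocase, differed by -0.14 (adjusted p = 0.303) and by -0.20 (adjusted p = 0.31).

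Among 16 genes of hormone and nutrient input 3 fell and 0 rose by limma, where 5.66% of all named genes were lower and 2.70% higher. The median difference was -0.08. A rank-sum test called 3 of the 16, and 7 had an unadjusted p under 0.05 by limma, a count without the share of all genes beside it. MLXIPL, the carbohydrate response element binding protein, fell by 0.50 on the log2 scale (SE 0.09, limma adjusted p = 0.00469), with signals of 8.68 to 9.14 in growing and 8.18 to 8.78 in finishing steers, 7 of 8 below every growing steer. GCGR, the glucagon receptor, fell by 0.28 (SE 0.07, adjusted p = 0.0274), with 6 of 8 finishing steers below every growing steer. The GCGR call was lost without growing replicate 5, 7 or 8 (adjusted p = 0.0511, 0.0574 and 0.0572). GNAS, the stimulatory G protein subunit that couples such receptors to cyclic AMP, fell by 0.30 (SE 0.05, adjusted p = 0.00382) on its brightest probe set, with all 8 finishing steers below all growing steers, but its other probe set, at mean signals of 4.83 and 5.01, had a difference of 0.18 (adjusted p = 0.213). INSR, the insulin receptor, had a difference of 0.04 (adjusted p = 0.854).

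The genes whose signal varied most like that of GYS2 over the 16 arrays, once each phase mean had been taken off, were NEDD9 (r = 0.885), MOB3B (r = 0.864) and KRBA2 (r = 0.861), out of 18009 genes compared. These were the highest of many correlations and are a description of these arrays. Their own differences between phases were 0.12, 0.10 and 0.07, with adjusted p = 0.823, 0.756 and 0.876 by limma.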

How the data were processed

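The authors deposited 1 value per probe set and array, taken here as a log2 signal because the values span 1.48 to 14.1. Per the labels' protocols, total RNA was extracted with Trizol and biotin-labelled cRNA was made by oligo(dT) priming for Affymetrix arrays. GCOS 1.2 and Partek 6.4 appear in the submitters' processing notes with no role stated, and the methods of summarising probes and normalising arrays were not given in the sources used here. Array medians lay between 5.57 and 5.64, and the values were used as deposited, without a filter. Noise near the lower end of the scale compresses changes of dim genes, and the number of arrays limits the precision.

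Of 26773 probe sets, 18457 had 1 symbol in the platform annotation, 688 several and 7628 none. All 10 symbols matched RefSeq by gene identifier (assembly ARS-UCD2.0). The annotation looks like one for a gene array, while the labels describe oligo(dT) labelling, and which array was used is not settled here, so every gene name rests on that annotation and single assignments may be wrong. The linear model (lmFit, eBayes) was fitted by limma 3.58.1 under R 4.3.3, 2-sided, with a threshold of 0.05, and tested on simulated data. Intervals use the moderated SE. Pairs of genes were compared by exact permutation over 12870 arrangements with numpy 2.4.6 and scipy 1.17.1.

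The 10 genes, the lists and the tests were chosen with earlier results of these data known. Named are all 10 genes, pathway genes past the threshold, a fixed set of isoforms and transporters, the 3 genes most like GYS2 and the brightest hepatocyte marker. A few other cell type markers are named because of their values. No pair of arrays held identical values. Replicate numbers in the labels did not pair the steers. Alternatives covered normalisation, variance model, array weights, probe set choice, filters, a rank-sum test, a replicate block, a stricter threshold and leaving out arrays.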

Additional observations from a re-analysis of the deposited data

Results flagged for a closer look

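In 54 sets of 8 values (each named gene or gene pair in each phase) 4 held a steer far from the other 7, where chance gives about 1 in 20. Finishing replicate 5 had a GCGR signal of 9.01, with the other finishing steers at 9.30 to 9.50. Finishing replicate 3 had a GNAS signal of 11.05, with the others at 10.79 to 10.88, and a PGM2 signal of 10.36, with the others at 10.68 to 10.96. Growing replicate 7 had a PYGM signal of 4.797, with the others at 4.37 to 4.56. None of the 10 glycogen genes had a steer that far from the others.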

How the results depend on the processing

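The call of GYS2 held under quantile normalisation, both centrings, the variance trend, array weights, the filters, the other choices of probe set and the rank-sum test, with differences from 0.36 to 0.40 and adjusted p from 0.011 to 0.0439. The count of glycogen genes called was 0 without finishing replicates 5 and 6, at a threshold of 0.01 and with a replicate block (GYS2 adjusted p = 0.0944). Replicate numbers did not pair the steers: deviations of same-numbered steers correlated between -0.153 and 0.0406, and 0 of 8 growing steers correlated best with their own number. The block lowered the calls over all probe sets from 1777 to 910, and leaving out finishing replicates 5 and 6 gave 942. With the block GCGR and GYG2 had adjusted p = 0.103 and 0.0554. PPP1R3B had a difference of 0.0735 with array weights, 0.37 without finishing replicates 5 and 6, and -0.18 to 0.19 without 1 array. PPP1R3C had 0.24 without finishing replicates 5 and 6 and -0.387 to 0.0712 without 1 array. Near 0, INSR (-0.00029 with ribosomal centring), PHKB (0.0156 without finishing replicates 5 and 6, and -0.0581 to 0.0101 without 1 array), PYGB (-0.135 to 0.0352 without 1 array) and PYGM (-0.0656 to 0.0225) changed sign without being called. GNAS had 0.18 on its most variable probe set. PGM2 was lost with ribosomal centring (adjusted p = 0.11) and the rank-sum test (0.0522), and PHKG1 with quantile normalisation (0.0638). Without finishing replicates 5 and 6 PGM2 and PHKG1 had adjusted p = 0.13 and 0.107. Of the other glycogen genes 0 were higher at the threshold of 0.01, and 1 to 3 without 1 array, the lowest count without growing replicate 2, 6 or 7 or finishing replicate 6 or 8. Of the glucose handling genes 0 to 1 were higher without 1 array. The 3 within-array comparisons kept their direction and their side of the threshold under quantile normalisation, without each array in turn and without finishing replicates 5 and 6, and were not run under the other alternatives. No detection calls were used, so how far dim signals lie above background is unknown.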
